A study of Mus musculus with 6 samples.

Results

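The T-box family genes examined were *Tbx1*, *Tbx2*, *Tbx3*, *Tbx4*, *Tbx5*, *Tbx6*, *Tbx15*, *Tbx18*, *Tbx20* and *Eomes*, and their members here are accessible chromatin intervals. An interval was assigned to one of these 10 genes when its strongest summit lay nearest to a transcription start site (TSS) of that gene, among all protein-coding TSSs of the GENCODE M21 basic set, at a distance of at most 50 kb. The rule found 67 of the 190252 distinct intervals in the conservative peak lists of both genotypes. They were 25 of 82885 intervals in the parent list and 42 of 107480 in the deletion list.

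ATAC-seq, which cuts and tags open chromatin with a transposase, was run on neural stem/progenitor cells (NSPCs) derived from mouse embryonic stem cells (ESCs). The study asked what loss of SRR2-18, an enhancer cluster of *Sox2*, changes in these cells. Both groups were 129S1/Cast F1 hybrids with an mCherry tag on the 129 allele of *Sox2*, grown in N2B27 with EGF and bFGF. Parent NSPCs came from Clone 5B, which has no deletion, and deletion NSPCs came from Clone 47D, which lacks SRR2-18 on both alleles after Cas9 editing in the ESCs. Each genotype was thus 1 clone, grown as 3 cultures, so that clone and deletion cannot be told apart. The peak lists pool the 3 cultures of a genotype, so the values below have no replicate error and no test between genotypes was possible.

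T-box proteins are transcription factors that share a DNA-binding domain first described in Brachyury, and they bind short sequences close to AGGTGTGA. They are best known from gastrulation, the paraxial mesoderm, the heart, the limbs and the pharyngeal arches, and some of them mainly repress transcription. In the nervous system, *Eomes* marks intermediate progenitors of the developing cortex. *Tbx2* with *Tbx4*, and *Tbx3* with *Tbx5*, are neighbouring pairs that arose by duplication.

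The labelled cell type was compared with intervals at marker genes, counting genes with an interval within 1 kb of a TSS. All 8 neural stem and progenitor markers, among them *Nes*, *Sox1* and *Fabp7*, had such an interval in both lists. Within 50 kb they had 53 parent intervals, 26 of them parent-only (49.1%), beside 52.3% of all parent intervals. They had 37 deletion intervals, 11 of them deletion-only (29.7%), beside 63.1% of all deletion intervals. Of 4 pluripotency genes 1, *Esrrb*, had an interval within 1 kb of a TSS, in both lists. Assigned intervals in the parent and deletion lists were 10 and 10 for *Esrrb* and 3 and 4 for *Nanog*. They were 0 and 1 for *Zfp42*, and *Pou5f1* had none in either. For 6 cardiac genes the count was 1 in both lists, and for 4 neuronal genes it was 2 in both, though not the same 2. *Tubb3* had such an interval in both lists, *Elavl3* in the parent list alone and *Rbfox3* in the deletion list alone. For 5 paraxial mesoderm genes the count was 1 in the parent list and 4 in the deletion list. It was 2 and 3 for 3 endoderm genes, 1 and 3 for 4 epithelial genes, and 2 in both for 3 neural crest genes. Within 50 kb, the parent and deletion lists held 22 and 25 paraxial mesoderm, 5 and 13 endoderm and 8 and 18 epithelial intervals. They held 17 and 17 cardiac, 17 and 15 neuronal and 14 and 14 neural crest intervals. Counts for paraxial mesoderm, endoderm and epithelial markers were thus higher in the deletion list, as were those of T-box intervals. The deletion list was also the longer one, with 107480 against 82885 intervals. Of these markers' deletion intervals 60.0%, 76.9% and 72.2% were deletion-only, beside 63.1% of all, so paraxial mesoderm lay below that share. Of their parent intervals 54.5%, 40.0% and 37.5% were parent-only, beside 52.3% of all. The part of these markers in the results was not tested. Of all protein-coding genes, 59.2% had an interval within 1 kb of a TSS in both lists. In the deletion list alone 6.07% had one, and in the parent list alone 2.60%.

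The AP-1 consensus TGACTCA, bound by dimers of FOS and JUN proteins, lay within 100 bp of the strongest summit in 13 of 30 T-box intervals found only in the deletion list (43.3%). This was close to its share over all intervals found only in that list, 41.6%. It was in 0 of 13 T-box intervals found only in the parent list, beside 2.55% of all such intervals, and in 0 of 12 shared ones, beside 7.96% of all shared intervals of the parent list and 12.8% of those of the deletion list. The match nearest the summit of each of the 13 intervals is shown with 10 bases on either side, read from the plus strand of GRCm38 (mm10), with the match in capitals. The clones are hybrids, and their alleles may differ from this reference.
Tbx2, 6.45 kb downstream, chr11:85838936-85838962: actccccaaaTGACTCAcctctcagat
Tbx3, 48.2 kb upstream, chr5:119622499-119622525: atgggtggctTGACTCAgaaggggctg
Tbx3, 36.5 kb upstream, chr5:119634131-119634157: ctgccatgcgTGAGTCAtctatatgtg
Tbx3, 35.5 kb upstream, chr5:119635115-119635141: ctctggtctaTGACTCAgccacacggg
Tbx3, 23.5 kb upstream, chr5:119647114-119647140: gcttgggataTGACTCAgtggttgaga
Tbx3, 20.3 kb downstream, chr5:119691273-119691299: gcggccagcgTGAGTCAggcgcccatg
Tbx4, 28.8 kb downstream, chr11:85925641-85925667: ggaggaagcgTGAGTCAgaggcggagg
Tbx4, 45.6 kb downstream, chr11:85942398-85942424: gcatggagacTGAGTCAtactgcccag
Tbx15, 10.1 kb downstream, chr3:99263877-99263903: tacttcccctTGACTCActctggagat
Tbx15, 49.5 kb downstream, chr3:99303322-99303348: ctggctgtagTGACTCAtgtctgtaat
Tbx20, 36.5 kb upstream, chr9:24810804-24810830: ccttaatctgTGACTCAcagcacgcgt
Eomes, 29.8 kb upstream, chr9:118448405-118448431: acatctgctcTGAGTCAgctgcgggga
Eomes, 10.1 kb downstream, chr9:118488411-118488437: ctgtaatttaTGACTCAacctcaaggg
The same letters read from the other strand are TGAGTCA, and 8 of the 13 carried the first form on the plus strand. The match was 1 to 3 bp from the summit in 4 of the 5 *Tbx3* intervals. At the other 9 intervals it was 9 to 67 bp away.

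An interval was called shared when it overlapped one of the other list by at least 1 bp, and otherwise parent-only or deletion-only. Of the 25 parent T-box intervals, 12 were shared and 13 (52.0%) were parent-only, beside 52.3% of all parent intervals. Of the 42 deletion T-box intervals, 12 were shared and 30 (71.4%) were deletion-only, beside 63.1% of all deletion intervals. Leaving out *Tbx3*, 19 of 31 (61.3%) were deletion-only. All 10 genes had an interval in the deletion list and 8 had one in the parent list, since *Tbx3* and *Tbx5* had none there. Genes with no parent interval and at least 1 deletion interval made up 6.91% of the 21924 protein-coding genes.

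**Figure D1:**
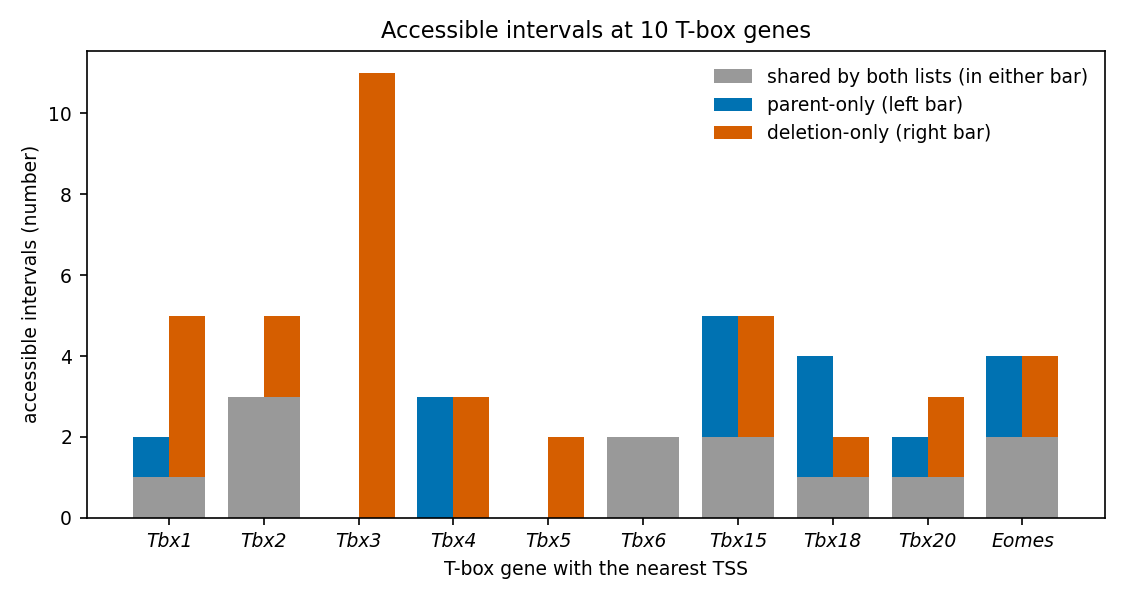
Number of accessible intervals assigned to each T-box gene (vertical axis), in the parent list (left bar) and the deletion list (right bar), split into shared, parent-only and deletion-only. *Tbx3* stands out with 11 deletion-only intervals and no parent interval, and both *Tbx6* intervals of either list are shared.

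Read depth differed between the lists. The lowest local background, which is the genome-wide mean pileup, stood at 38.8 for the parent and 19.7 for the deletion, a ratio of 1.98. Values are therefore given with their rank in their own list, where the top 1% is the strongest. Fold enrichment is the pileup at the summit over the local background, and summit reads are the pileup itself, solved from the fold enrichment and its −log10 p. Scaled to the depth of the parent pool, the summit reads of all 30 deletion-only T-box intervals lay above the 5th percentile of the parent list, as did 98.3% of all deletion-only intervals. Scaled to the deletion depth, those of 11 of 13 parent-only T-box intervals lay above the 5th percentile of the deletion list, as did 83.2% of all parent-only intervals.

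*Tbx3* encodes a repressor needed in limb, heart and mammary development, which also takes part in ESC self-renewal. It had 11 intervals in the deletion list, all deletion-only, and 0 in the parent list. Only 6 of 21924 protein-coding genes (0.0274%) had no parent interval and at least 11 deletion intervals, the others being *Rbfox1*, *Epb41l3*, *Slit3*, *Efemp1* and *Scn9a*. The minimum of 11 was set by the count of *Tbx3* itself, the highest of the 10 genes. The length of sequence nearest to each gene was not taken into account. With the optimal lists described below, *Tbx3* had 9 deletion-only intervals and a parent interval at its TSS.

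The interval at the *Tbx3* TSS, chr5:119669826-119671171, was 1346 bp wide and had its summit in a UTR exon, 32 bp from the TSS. Its summit held 2236 reads, which ranked in the top 2.42% of the deletion list, over a local background of 231. Its fold enrichment of 9.64 ranked lower, in the top 54.8%. The parent lists differed at this TSS. The parent optimal list, which is the less strict of the deposited pair, held an interval at chr5:119670302-119671069 with 281 summit reads over a background of 38.8, a fold enrichment of 7.08 in the top 63.5% of that list. By summit reads it ranked in the top 79.5%. This was 1 of 30 deletion-only T-box intervals to overlap the parent optimal list, beside 3.15% of all deletion-only intervals. The 10 other *Tbx3* intervals overlapped neither parent list. The less strict list did not hold every conservative interval. Of the 30 deletion-only T-box intervals, 28 overlapped the deletion optimal list. The exceptions were the *Tbx3* interval 11.8 kb downstream and the *Tbx2* interval 1.36 kb upstream.

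The highest fold enrichment of any deletion-only T-box interval, 24.1 (top 4.04%), belonged to chr5:119646799-119647342, 23.5 kb upstream of *Tbx3*. It lies in introns of the noncoding genes *Tbx3os1* and *Gm16064*, and held 497 summit reads. The interval had 1 summit, the AP-1 match lay 1 bp from it, and neither parent list overlapped it. The 151 bases centred on its summit are shown with the AP-1 match in capitals.
Tbx3, 23.5 kb upstream, chr5:119647053-119647203, plus strand: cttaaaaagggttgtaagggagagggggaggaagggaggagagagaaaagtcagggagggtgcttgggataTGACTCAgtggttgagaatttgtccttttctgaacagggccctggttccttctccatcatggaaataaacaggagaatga
Upstream of it in *Tbx3os1* were intervals 35.5, 36.5 and 48.2 kb from *Tbx3*, with fold enrichments of 12.1, 7.29 and 6.08 and an AP-1 match in each. Downstream of the TSS, an interval at 9.9 kb and one at 11.8 kb fell in exons of *Tbx3*, with fold enrichments of 5.86 and 2.92. The latter ranked in the top 98.9%, near the foot of the list. Beyond the gene lay intervals at 15456, 20269, 35787 and 42041 bp, with fold enrichments of 7.32, 7.87, 6.68 and 13.5. Of these the one at 20269 bp, which lies near the start of *Tbx3os2*, held an AP-1 match.

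*Tbx5*, an activator that specifies the forelimb field and is required for the heart, lies next to *Tbx3* on chromosome 5. Its deletion intervals were at chr5:119835001-119835821, 646 bp downstream of its basic-set TSS, and at chr5:119845021-119845469, 10.5 kb downstream, both in introns. Their fold enrichments were 6.82 (top 75.3%) and 8.23 (top 64.6%), with 160 and 169 summit reads. Neither overlapped either parent list, and neither held an AP-1 match. With the parent scaled to the deletion depth and a −log10 p minimum of 100 in either list, neither remained. With equal list lengths, the deletion list shortened to its strongest intervals until it was as long as that of the parent, 1 remained by −log10 p. The TSS call depends on the transcript, because the gene record of *Tbx5* begins upstream of the basic-set TSS, and no interval of the conservative lists lay within 1 kb of that end. The optimal list of the deletion did hold one there, chr5:119831049-119832036, with a fold enrichment of 6.26 (top 75.4%). That of the parent held none.

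From 50 kb before *Tbx3* to 50 kb after *Tbx5*, chr5:119620669-119935219, the deletion list held 14 intervals and the parent list 0 across 315 kb. One of the 14 lay 70.3 kb from *Tbx3*, past the distance limit. The rest were the 11 *Tbx3* and 2 *Tbx5* intervals already given, so the count is not a separate result. How often a stretch of this length holds no parent interval was not tested. With the optimal lists the counts were 15 and 1, the latter at the *Tbx3* TSS. The *Tbx2* and *Tbx4* stretch, chr11:85782551-85966097, differed from this. It held 10 parent intervals, 4 of them parent-only, and 13 deletion intervals, 6 of them deletion-only, across 184 kb.

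**Figure D2:**
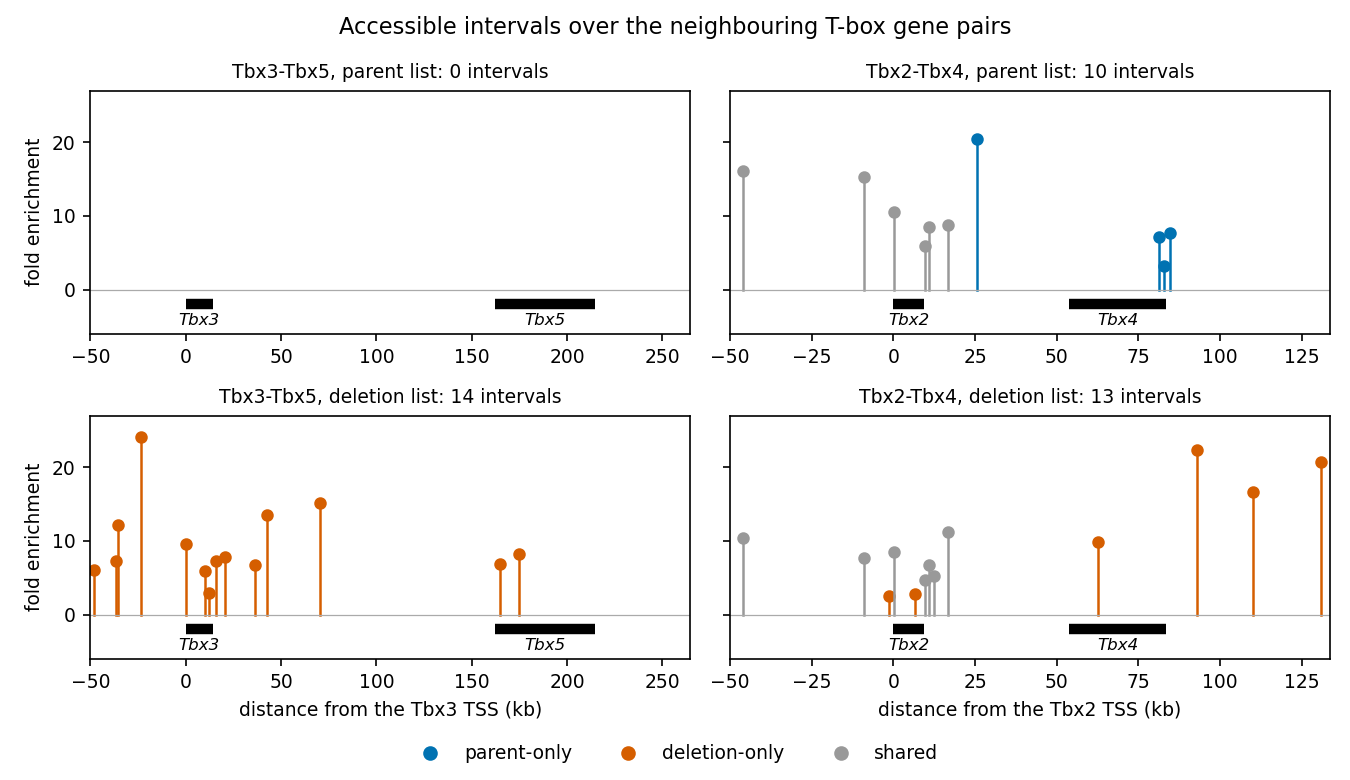
Fold enrichment (vertical axis) of each accessible interval against its distance in kb from the TSS of *Tbx3* (left) or *Tbx2* (right), in the parent list (top) and the deletion list (bottom). Black bars are the genes, and fold enrichments are not comparable between lists. The *Tbx3* and *Tbx5* stretch is empty in the parent list, while the *Tbx2* stretch holds shared intervals in both.

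*Tbx2* encodes a repressor of the same subfamily as *Tbx3*, with roles in the heart, the limbs and the eye. Its 3 parent intervals were all shared. The TSS interval, chr11:85832063-85833616 in the parent list, held 3619 summit reads in the top 9.30% there, and its counterpart held 1451 in the top 7.86% of the deletion list. By fold enrichment they stood at 10.5 (top 46.8%) and 8.5 (top 62.5%). The highest fold enrichment in both lists was in an intron of *Bcas3*, 46.0 kb upstream, with 16.1 (top 22.2%) for the parent and 10.4 (top 50.3%) for the deletion. The third shared interval, 9.16 kb upstream, had fold enrichments of 15.3 (top 25.5%) and 7.65 (top 68.9%). The 2 deletion-only intervals, 1.36 kb upstream and 6.45 kb downstream, had fold enrichments of 2.59 and 2.76, in the top 99.5% and 99.2%, but 419 summit reads each, in the top 43.0%. Neither remained with equal list lengths or scaled depth. Between *Tbx2* and *Tbx4*, 4 intervals of each list lay nearest to the annotated coding gene *Gm11444* and were not assigned to a T-box gene.

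*Tbx4*, the hindlimb and lung counterpart of *Tbx5*, was the gene with intervals in both lists of which none was shared. Its 3 parent intervals, 16955, 18717 and 20436 bp downstream of its last basic-set TSS, sat at the end of the gene. Their fold enrichments were 7.06, 3.14 and 7.63, in the top 66.9%, 96.7% and 62.9%. The 3 deletion intervals were elsewhere. One was in an intron 1.59 kb upstream of that TSS, with a fold enrichment of 9.91 (top 53.2%), and the others were intergenic, 28.8 and 45.6 kb downstream, with 22.3 (top 6.95%) and 16.7 (top 22.1%). Both intergenic ones held an AP-1 match. *Tbx4* was the 1 gene of the 10 with no interval within 1 kb of a TSS in either list.

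*Tbx1*, a gene of the pharyngeal apparatus and the second heart field, had 2 parent and 5 deletion intervals. Of the deletion intervals, 4 were deletion-only and stood between 1195 bp upstream and 4980 bp downstream of a *Tbx1* TSS, each with 2 to 4 summits. Their fold enrichments were low, from 4.32 to 6.18, in the top 93.8% to 80.5%, and none held an AP-1 match. They fell to 0 with equal list lengths by fold enrichment, to 1 by −log10 p, and to 2 with the parent scaled to the deletion depth. The one nearest a TSS, chr16:18589905-18590815, had a fold enrichment of 4.32 and 233 summit reads. The nearest parent interval was 31.6 kb downstream in an intron of *Gnb1l* and was shared, with fold enrichments of 5.85 (parent, top 76.3%) and 10.3 (deletion, top 51.2%). A parent-only one followed at 43.3 kb, chr16:18543106-18544033, with 15.7 (top 23.6%).

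*Tbx15*, which acts in skeleton, skin and brown fat, had 5 intervals in each list and 2 shared pairs. At its basic-set TSS the shared interval, chr3:99253047-99254521 in the parent list, had fold enrichments of 9.80 (parent, top 50.1%) and 8.26 (deletion, top 64.4%). The other pair lay 12.7 kb upstream, at the 5′ end of the gene record (99240381), with 14.9 (top 26.9%) and 15.0 (top 28.5%). The remaining intervals alternated along the locus between genotypes. Parent-only ones were 1.26, 36.8 and 50.0 kb downstream, with fold enrichments of 3.35, 16.7 and 12.9, and deletion-only ones were 19.9 kb upstream and 10.1 and 49.5 kb downstream, with 13.8, 8.47 and 14.2.

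At the far end of this stretch, in an intron of *Tbx15*, a deletion-only interval, chr3:99303013-99303481, and a parent-only one, chr3:99303517-99303971, stood side by side with 35 bp between them. Their summits were 419 bp apart. The 151 bases around each summit are shown because the neighbours differ in their letters. Capitals mark SOX (CNTTGTT) and AP-1 (TGACTCA) matches in the deletion-only sequence and posterior HOX (TTTATNG) and TEAD (GGAATG) matches in the parent-only one, on either strand.
Tbx15, 49.5 kb downstream, chr3:99303223-99303373, deletion-only, plus strand: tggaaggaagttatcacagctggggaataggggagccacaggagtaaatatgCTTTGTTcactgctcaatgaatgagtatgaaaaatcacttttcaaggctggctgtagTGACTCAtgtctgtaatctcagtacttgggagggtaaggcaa
Tbx15, 50.0 kb downstream, chr3:99303642-99303792, parent-only, plus strand: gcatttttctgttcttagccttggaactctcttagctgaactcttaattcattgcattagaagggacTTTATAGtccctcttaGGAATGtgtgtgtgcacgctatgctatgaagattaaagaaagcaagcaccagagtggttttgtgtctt
Among all deletion-only intervals 11.4% had a SOX match and 41.6% an AP-1 match, and among all parent-only ones 5.86% had a posterior HOX match and 17.4% a TEAD match. The parent-only interval was also the one closest to the distance limit, at 49957 bp. The nearest T-box interval outside it was another parent-only one, 50.3 kb upstream of *Tbx15*, with a fold enrichment of 10.9.

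*Tbx18*, a marker of the sinus node, the epicardium and the anterior somite compartment, had 4 parent and 2 deletion intervals. Its TSS interval, chr9:87729438-87731704 in the parent list, was shared and broad, at 2267 bp with 6 summits. It held 3402 summit reads (top 10.4%) in the parent list and 667 (top 26.7%) in the deletion list. The 3 parent-only intervals lay in *Tbx18* introns 9.23, 13.5 and 22.9 kb downstream, with fold enrichments of 6.45 (top 71.5%), 4.44 (top 88.3%) and 7.86 (top 61.4%). With the parent scaled to the deletion depth, 0 of them passed the −log10 p minimum of 100. The single deletion-only interval, 9.59 kb upstream, had 7 summits and a fold enrichment of 11.2 (top 45.8%).

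*Tbx20*, a regulator of cardiomyocytes and of hindbrain motor neurons, had a shared TSS interval, chr9:24773944-24774818 in the parent list. Its fold enrichment of 21.8 was in the top 5.75% of the parent list, and 13.5 was in the top 34.6% of the deletion list. By summit reads the order was the opposite, with 1421 in the top 28.7% and 1071 in the top 13.9%. A parent-only interval 8.23 kb upstream had a fold enrichment of 11.7 (top 40.6%), and deletion-only ones 6.94 and 36.5 kb upstream had 7.91 (top 66.9%) and 5.81 (top 83.5%), the last with an AP-1 match.

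*Tbx6*, which directs paraxial mesoderm away from a neural fate, had 2 intervals in each list, all of them shared. With equal list lengths 2 (by fold enrichment) or 1 (by −log10 p) became parent-only, and 1 did with scaled depth. They were narrow, 264 to 486 bp. The one 1.34 kb upstream falls in a UTR exon of the neighbouring gene *Ypel3*, with fold enrichments of 5.39 (parent, top 80.3%) and 4.15 (deletion, top 94.6%). The one 700 bp upstream had 4.55 (top 87.4%) and 3.06 (top 98.5%). Low fold enrichment went with high summit reads here, 1967 and 1651 in the parent list (top 21.5% and 25.2%) and 508 and 375 in the deletion list (top 35.7% and 47.6%).

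*Eomes*, needed for mesoderm and endoderm formation as well as in the cortex, had 4 intervals in each list and 2 shared pairs. The highest fold enrichment of any T-box interval was here: the parent-only interval chr9:118436216-118436745, 41.7 kb upstream in an intron of *4933432G23Rik*, had 26.7 (top 0.814%) with 1062 summit reads. It overlapped neither deletion list. At the gene itself a broad parent-only interval, chr9:118476163-118478309, had 6 summits and a fold enrichment of 7.5 (top 63.7%). It ended inside the first exon, and it did overlap an interval of the deletion optimal list. The shared pair next to it, 765 bp downstream of the TSS in an *Eomes* exon, had fold enrichments of 3.30 (parent, top 96.0%) and 8.09 (deletion, top 65.5%). A further pair 11.5 kb downstream had 17.1 (top 18.8%) and 11.4 (top 44.6%). The 2 deletion-only intervals, 29.8 kb upstream and 10.1 kb downstream, both had an AP-1 match and fold enrichments of 5.81 (top 83.5%) and 4.01 (top 95.3%). Neither was among the deletion intervals when list lengths were made equal.

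The 2 parent-only *Eomes* regions are shown, the 151 bases around the upstream summit with a TEAD match (GGAATG, either strand) in capitals, and the 250 bases before the RefSeq start of the gene, which the broad interval covers. The *Tbx20* promoter, whose shared interval was the T-box TSS interval with the highest parent fold enrichment, is set beside it.
Eomes, 41.7 kb upstream, chr9:118436402-118436552, parent-only, plus strand: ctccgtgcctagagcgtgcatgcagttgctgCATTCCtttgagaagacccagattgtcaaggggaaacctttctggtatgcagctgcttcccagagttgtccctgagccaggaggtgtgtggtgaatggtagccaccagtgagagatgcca
Eomes promoter, chr9:118477939-118478188, plus strand: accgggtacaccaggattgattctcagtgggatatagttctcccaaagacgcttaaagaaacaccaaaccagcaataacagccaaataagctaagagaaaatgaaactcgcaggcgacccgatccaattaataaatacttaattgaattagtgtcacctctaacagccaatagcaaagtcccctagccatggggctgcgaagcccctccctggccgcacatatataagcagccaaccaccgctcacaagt
Tbx20 promoter, chr9:24774304-24774553, minus strand: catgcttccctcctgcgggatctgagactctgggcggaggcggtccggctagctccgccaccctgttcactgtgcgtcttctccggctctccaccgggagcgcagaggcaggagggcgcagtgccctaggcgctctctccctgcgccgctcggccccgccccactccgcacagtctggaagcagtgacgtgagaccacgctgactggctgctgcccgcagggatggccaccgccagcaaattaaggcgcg
Neither promoter stretch held any of the 11 consensus sequences searched, so both are in lower case. Of all 32851 RefSeq promoter stretches of 250 bases, 4.46% held the AP-1 letters, 12.1% SOX and 12.6% TEAD. RefSeq promoters were matched for 6 of the 10 genes, not for *Tbx2*, *Tbx3*, *Tbx5* and *Tbx15*.

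**Figure D3:**
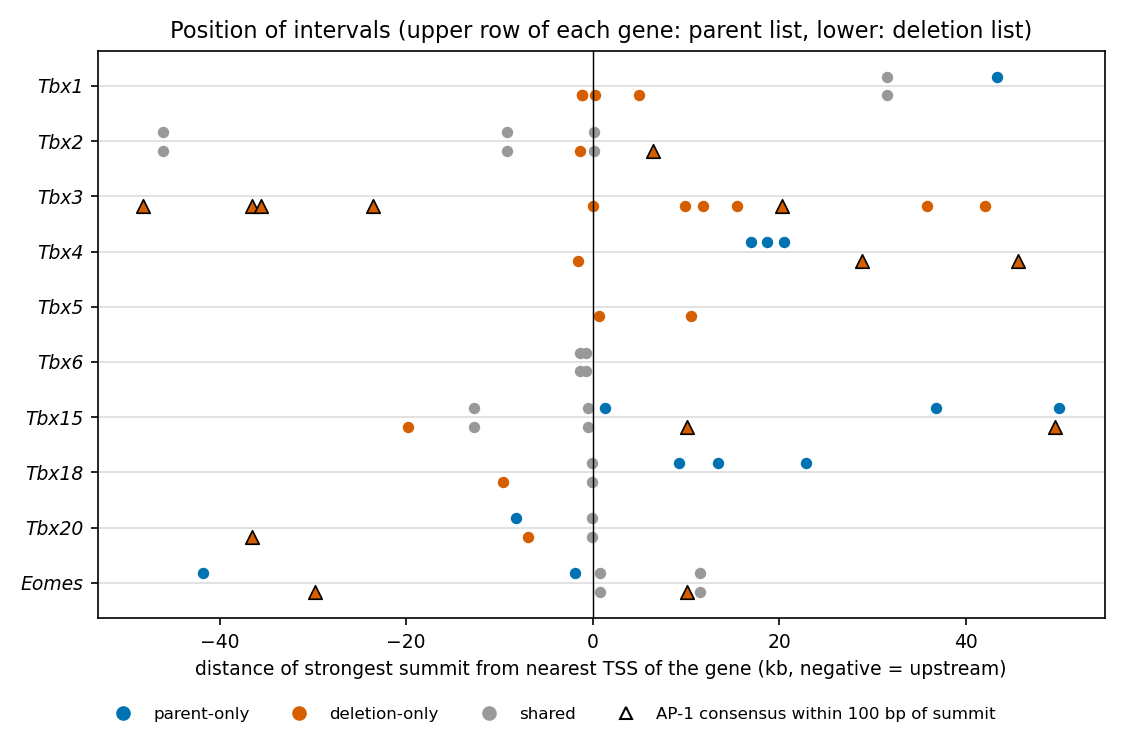
Distance in kb of the strongest summit of each interval from the nearest TSS of its T-box gene (horizontal axis), with the parent list in the upper and the deletion list in the lower row of each gene. Triangles mark the 13 intervals with an AP-1 consensus within 100 bp of the summit, all deletion-only and all more than 1 kb from a protein-coding TSS.

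With an interval counted as a promoter interval when it came within 1 kb of any TSS of the gene, 6 of the 10 genes had one in both lists, *Tbx2*, *Tbx6*, *Tbx15*, *Tbx18*, *Tbx20* and *Eomes*, beside 59.2% of all protein-coding genes. A promoter interval in the deletion list alone was found at 3 genes, *Tbx1*, *Tbx3* and *Tbx5*, beside 6.07% of all genes. None of the 10 had one in the parent list alone, beside 2.60%. These counts changed with list length. With equal lengths by fold enrichment, *Tbx1* and *Tbx6* lost their deletion promoter interval, and by −log10 p or with scaled depth *Tbx5* and *Tbx6* did, so that *Tbx6* then had one in the parent list alone. *Tbx3* had one in the deletion list under all of these. With the optimal lists *Tbx3* joined the genes with one in both.

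The 12 shared pairs were compared by rank. The deletion list gave the higher rank by fold enrichment in 2 of 12 pairs, at *Tbx1* and at the *Eomes* exon, beside 42.8% of the 40114 overlapping pairs of both lists. By −log10 p it did so in 5 of 12, beside 45.4%, and by summit reads in 6 of 12, beside 47.1%. Beside the share of all pairs, the count was thus low by fold enrichment and close to it by the other measures.

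**Figure D4:**
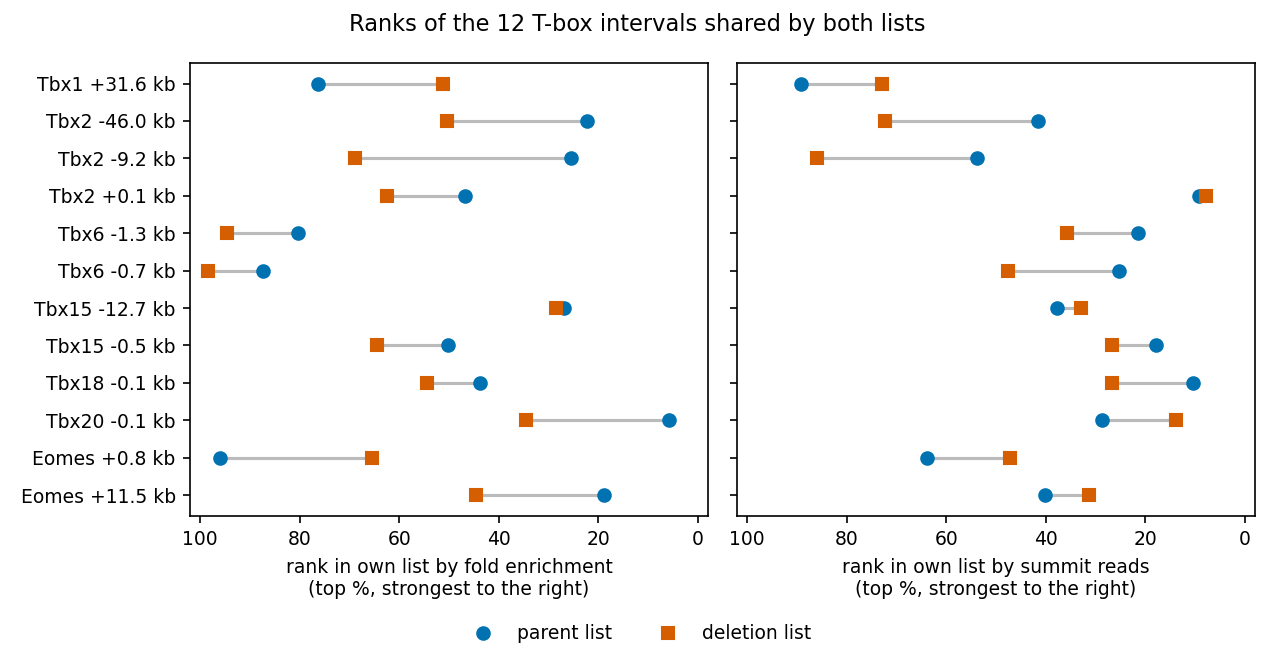
Rank of each shared T-box interval within its own list, as the top percent by fold enrichment (left) and by summit reads (right), in the parent list (circles) and the deletion list (squares), with the strongest to the right. The *Tbx20* TSS moves from the top 5.75% to the top 34.6% by fold enrichment and from the top 28.7% to the top 13.9% by summit reads.

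The consensus counts were set beside those of all intervals of the same class. In windows 500 bp to the side of all deletion-only summits, AP-1 was found in 3.77%. Among deletion-only T-box intervals it was absent from the 3 within 1 kb of a protein-coding TSS and present in 13 of the 27 farther away (48.1%), where all such intervals had 42.2%. SOX (CNTTGTT) was found in 3 of 13 parent-only T-box intervals (23.1%), beside 18.8% of all parent-only ones. TEAD (GGAATG) was found in 2 of 30 deletion-only T-box intervals (6.67%), beside 24.2%, and HOX-PBX (TGATTNAT) in 0 of 30, beside 10.3%. The CTCF consensus went the other way, with 3 of 30 (10.0%), beside 3.48%. The T-box letters AGGTGTGA were found in none of the 67 windows, and in 0.509% of all parent-only and 0.611% of all deletion-only ones. The deletion-only T-box windows were richer in G and C, at 56.7% against 46.1% for all deletion-only intervals. Only the T-box intervals had a limit on the distance to a TSS, so these motif and base shares are not like for like.

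**Figure D5:**
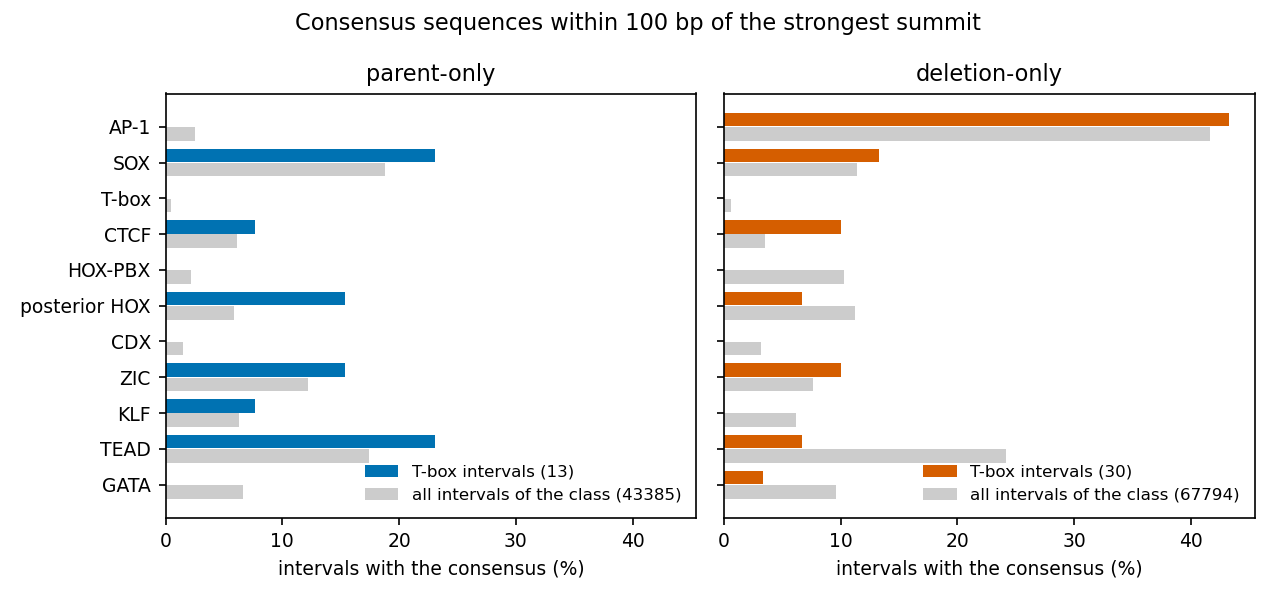
Percentage of parent-only (left) and deletion-only (right) intervals with each consensus within 100 bp of the strongest summit, for the T-box intervals (coloured) and all intervals of the class (grey). The AP-1 bars of the deletion-only class are of similar length, 43.3% and 41.6%.

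By position, 7 of 25 parent and 15 of 42 deletion T-box intervals (28.0% and 35.7%) had their summit within 1 kb of a TSS of any annotated gene, beside 20.0% and 16.6% of all intervals. In gene bodies lay 64.0% and 50.0%, beside 48.8% and 47.2%, and between genes 2 and 6 intervals (8.0% and 14.3%), beside 31.2% and 36.2%. These shares are not like for like. The rule kept only T-box intervals within 50 kb of a protein-coding TSS, while all intervals had no distance limit. The rule itself thus raises the T-box share near a TSS and lowers the share between genes.

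Other genes of the pathways were counted in the same way. Their shares are to be read beside the 52.3% of all parent intervals that were parent-only and the 63.1% of all deletion intervals that were deletion-only. The 7 T-box genes outside the 10, which include *T* and *Tbr1*, had 18 intervals in each list, of which 9 in each (50.0%) were found only there. The 9 mesoderm and somite genes, such as *Msgn1*, *Mesp2* and *Wnt3a*, had 28 in each list, 12 in each (42.9%) genotype-only. The 9 heart and limb genes had 37 parent and 53 deletion intervals, of which 18 (48.6%) were parent-only and 33 (62.3%) deletion-only. Named after their values were seen, *Pitx1*, which acts upstream of *Tbx4* in the hindlimb, had 0 parent and 6 deletion intervals and *Hand2* 3 and 9, while *Mef2c* had 14 and 7 and *Gja5* 9 and 8. The 4 cortical genes *Pax6*, *Neurog2*, *Neurod1* and *Insm1* had 19 parent and 15 deletion intervals, of which 11 (57.9%) and 7 (46.7%) were genotype-only.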

How the data were processed

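ATAC-seq was performed on 6 cultures, 3 per genotype, from 30000 cells each and 50000000 to 60000000 reads per sample per the labels. Reads went through the ENCODE pipeline for ATAC-seq, with MACS2 as the peak caller and IDR (irreproducible discovery rate) to combine cultures, and the authors deposited a conservative and an optimal list per genotype, in mm10. The columns deposited per peak are a score scaled from the IDR, a ratio called fold enrichment, and a −log10 p with its −log10 q. Pooled lists give no depth per culture and no replicate spread.

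The conservative lists were used. Distinct intervals took the values of their summit with the highest fold enrichment. Summit reads and background were solved from fold enrichment and −log10 p under a Poisson model with 1 added to either pileup, and 100% of reads came out whole within 0.05. They cover pooled pileups and not independent molecules. TSSs, exons and UTRs came from GENCODE M21. Sequences were read from GRCm38.p6 and, for promoters, the RefSeq table of that build. Motifs were searched on both strands within 100 bp of the summit, and several overlap (CDX lies within posterior HOX). The consensus letters searched and not given above were CCANNAGGG for CTCF, TTTATNGC for CDX, CAGCAGG for ZIC, CCACNCCC for KLF and AGATAA for GATA.

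The genes and lists were chosen with earlier results of these data known. Named for each gene were the intervals nearest its TSS and of highest fold enrichment in either list, and the 5 parent-only and 5 deletion-only intervals with the highest fold enrichment. Computations used Python 3.11.15, NumPy 2.4.6, pandas 2.3.3, SciPy 1.17.1, matplotlib 3.10.9 and pysam 0.24.0, and the scripts were tested on simulated data.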

Additional observations from a re-analysis of the deposited data

How the results depend on the processing

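No paired analysis was possible because the deposited lists pool the cultures of a genotype, and leaving out a culture was not possible for the same reason. The 10 summary values were recomputed under 14 alternatives. Of 108 recomputed values, 97 stayed within 1.5 times a count or within the 95% binomial interval of a percentage, and 11 moved further. This tally is a loose measure. Merging overlapping intervals could move no value, because no intervals of a list overlapped each other. The binomial interval takes intervals as independent and is wide at these small counts. With a gene distance of 10 kb the counts were 12 parent, 20 deletion, 4 parent-only and 12 deletion-only intervals, 33.3% of the parent ones were parent-only, and 8.33% of the deletion-only ones had an AP-1 consensus. With equal list lengths by fold enrichment 18 of 28 deletion intervals (64.3%) were deletion-only, and 15 of 25 parent ones (60.0%) parent-only. With equal lengths by −log10 p there were 27 deletion intervals, 17 of them deletion-only (63.0%), and again 15 of 25 parent ones (60.0%) were parent-only. The 2 genotypes were thus closer to each other than with the full lists, where the deletion list was the longer. With a −log10 p minimum of 100 in both lists, after scaling the parent to the deletion depth, there were 26 deletion intervals, 18 of them deletion-only. All of these settings leave fewer intervals by construction. Deletion-only intervals at *Tbx3* ranged from 2 (10 kb) to 14 (100 kb) over 12 settings, with 0 parent-only ones in each. With scaled depth the parent-only intervals at *Tbx4* fell from 3 to 1. Genes with a promoter interval in the deletion list were 7 with equal list lengths or scaled depth, 8 with 1 TSS per gene and 10 with a distance of 2.5 kb.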

Other observations

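Between 50 and 100 kb from a T-box TSS *Tbx3* had 3 deletion-only intervals, 52.7 and 79.2 kb upstream and 70.3 kb downstream, and no parent interval. The downstream one was counted above in the stretch with *Tbx5*. The upstream ones held an AP-1 consensus, and the fold enrichments were 14.3, 9.05 and 15.2. *Tbx18*, which had more parent than deletion intervals within 50 kb, had 2 deletion-only intervals farther off, 86.1 and 96.8 kb downstream, with fold enrichments of 23.4 (top 5.04%) and 19.1 (top 14.5%) and no AP-1 consensus. *Tbx4* had a parent-only interval 98.7 kb downstream with a fold enrichment of 24.3 (top 2.40%) and a deletion-only one 66.4 kb downstream with 20.7 (top 10.3%). *Eomes*, *Tbx20* and *Tbx18* each had 2 deletion-only intervals at this range, and no parent interval. Other genes differed from this. *Tbx15* had 2 parent-only and 1 deletion-only interval, and *Tbx4* had 2 and 1 in all, with 1 shared in each list. *Tbx2* had 2 parent-only and 3 deletion-only intervals, with 2 shared in each list. These small counts are to be read beside all intervals at any distance, of which 52.3% were parent-only and 63.1% deletion-only in their own lists.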
